A study of Mus musculus with 17 samples.

Results

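Gene expression in 5 single mouse brains treated with the catalytic antioxidant AEOL 10150 during experimental stroke was compared with that in 3 pools of ischemic brains whose labels name no drug. The treated brains are the arrays whose descriptions give 1 brain as the source of RNA, numbered 11, 12, 13, 14 and 16, and the untreated pools are the arrays titled as ischemia-reperfusion 1 to 3. Together they make up 8 of the 17 arrays of the series. In all of them the tissue was grey and white matter from the territory of this occluded vessel, the middle cerebral artery, with 1 h of ischemia followed by 6 h of reperfusion, and total RNA was measured on an oligonucleotide array with 12488 probe sets. The treated mice received AEOL 10150 intravenously between the ischemia and the reperfusion, whereas each untreated pool combined RNA of 6 brains. The labels give no dose, strain, age or sex, and they do not say whether the untreated mice received a vehicle.

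Another 3 arrays carried pools of 6 brains with the same ischemia and AEOL 10150, and these treated pools were used to check each result. Treated pool 1 is titled as given AEOL 10150 but its description names no drug, and the description of treated pool 2 calls it the first replicate. The brain numbered 11 in its description is number 4 in its title, and the labels do not say whether any of the single brains also entered a treated pool. Levels in 3 control pools (saline) and 3 drug control pools (AEOL 10150 without ischemia, the first of them described as given saline), each of 6 brains taken 6 h after the injection, are given beside a few genes. The contrast of single treated brains with untreated pools joins the drug, RNA of 1 brain in place of 6, and the scale on which arrays were deposited, and within this contrast these cannot be told apart.

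Occlusion of the middle cerebral artery deprives the lateral cortex and striatum of blood. On reperfusion the returning oxygen feeds the formation of superoxide, neurons and glia switch on immediate early and heat shock genes, and endothelium and microglia release chemokines that draw in leukocytes. AEOL 10150 is a metalloporphyrin that breaks down superoxide and other reactive species in repeated cycles, in the manner of superoxide dismutase.

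The deposited scale separated the arrays. On all untreated pools and on treated pool 1, the mean intensity between the 2nd and 98th percentiles was 2500, but it was 141 on treated pool 2, 187 on treated pool 3 and between 129 and 210 on the single brains. Each array was therefore brought to a trimmed mean of 2500, lower values were raised to an intensity of 109.5, called the floor here, and log2 values were used, which makes 6.77 the lowest possible level. All levels below are on this log2 scale and all differences are log2 differences. RNA integrity, read as the ratio of the 3' to the 5' actin control probe sets, was 1.70, 1.53 and 1.17 in untreated pools 1 to 3 and between 1.38 and 1.60 in the single brains. Neurons, astrocytes and oligodendrocytes were present by their markers: 7 of 7 neuronal, 5 of 5 astrocytic and 4 of 5 oligodendrocytic markers on the array lay above the floor on every single brain and every untreated pool. Bulk RNA does not tell fewer cells of a type from less RNA per cell.

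The single brains were more alike than the pools. The median SD of a probe set was 0.24 over the 5 brains, 0.39 over the 3 untreated pools and 0.34 over the 3 treated pools, although a pool averages 6 animals. Across probe sets, the correlation with the mean of the single brains was 0.969, 0.957 and 0.931 for untreated pools 1 to 3. It was 0.956 for treated pool 1, 0.951 for treated pool 2 and 0.987 for treated pool 3, while each brain reached 0.980 to 0.985 with the mean of the other 4. Treated pool 3 thus lay with the single brains and treated pools 1 and 2 lay with the untreated pools, although treated pool 2 was deposited on a scale like that of pool 3. These correlations are over genes that are not independent of one another, and they carry no test.

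**Figure D1:**
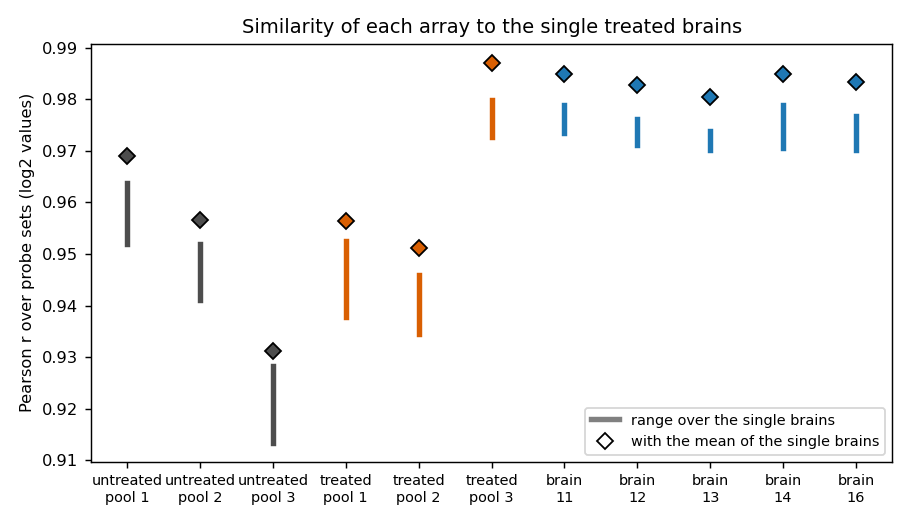
Pearson correlation of log2 intensities over probe sets (y axis) between each array (x axis) and the single treated brains; bars span the correlations with the individual brains and diamonds give the correlation with their mean (for a brain, the mean of the other 4). Treated pool 3, at 0.987, lies with the brains at 0.980 to 0.985, and treated pools 1 and 2, at 0.956 and 0.951, lie among the untreated pools at 0.931 to 0.969.

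Adult haemoglobin transcripts, the neutrophil gene Ltf, the synaptic gene Cplx2 and the interferon regulator gene Irf7 were lower in the single treated brains, and the interleukin 4 receptor gene Il4ra, the antioxidant gene Srxn1 and the splicing factor gene Srsf4 were higher. In all, 182 of 9889 probe sets tested passed an adjusted p of 0.05 in limma (1.84%), of which 90 were higher (0.91%) and 92 lower (0.93%) in the treated brains. Without adjustment 2295 probe sets had a p under 0.05, where 494 are due by chance, and in 1682 (17%) the 5 brains and the 3 pools did not overlap. The size of the change ranged from 0.69 to 3.43 among the rises and from 0.61 to 3.21 among the falls. When the arrays were instead scaled to a common median, the median over all probe sets moved from -0.05 to 0.06 and the split of calls from 90 higher and 92 lower to 135 higher and 54 lower. Quantile normalization gave 101 higher and 54 lower, so a list median that lies closer to 0 than this shift has no settled sign. P-values concern the spread among single animals and among pools taken as 1 common spread, and the labels do not say whether the pools hold separate sets of brains. With separate variances for pools and single brains 17 calls remained, and with the treated pools added to the same fit 11 remained.

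Pool against pool, the treated group showed no call. Of 10185 probe sets, 0 (0%) passed the threshold between the 3 treated and the 3 untreated pools in limma, 274 had an unadjusted p under 0.05 where 509 are due by chance, and the lowest adjusted p was 0.413. The comparison of single brains with treated pools, in which both sides had the drug, gave 4 calls (0.0393%) and 1130 probe sets at an unadjusted p under 0.05. Both comparisons share arrays with the main one, so their values for the called genes are set side by side here and not counted as separate evidence. Over the 90 rises the median difference from the untreated pools was 1.59 in the single brains, 0.00 in treated pool 1, 0.00 in treated pool 2 and 1.11 in treated pool 3. Over the 92 falls it was -1.20 in the single brains, -0.16 in treated pool 1, -0.09 in treated pool 2 and -1.03 in treated pool 3. Treated pool 3 lay within the range of the single brains for 55 of 90 rises and 51 of 92 falls. For treated pool 1 this held for 4 rises and 11 falls, and for treated pool 2 for 1 rise and 6 falls.

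**Figure D2:**
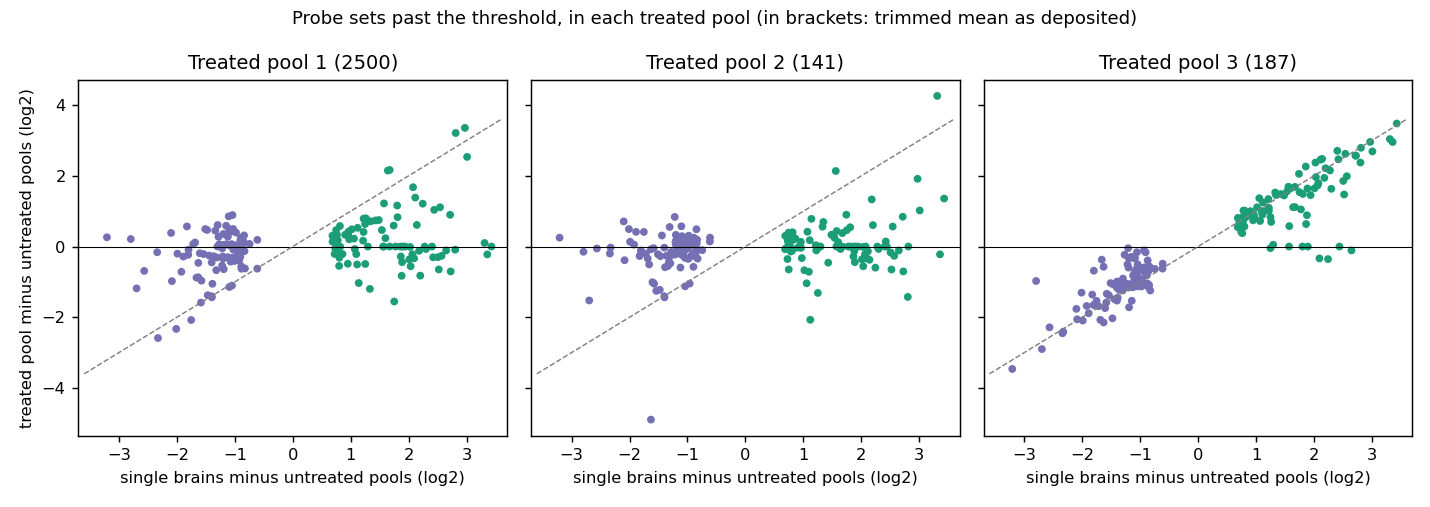
Log2 difference of each treated pool from the untreated mean (y axis, 1 panel a pool, trimmed mean as deposited in brackets) against that of the single brains (x axis) for the 182 called probe sets, rises in green and falls in purple, with the dashed line at equality. Pools 1 and 2 lie around the line at 0 (medians 0.00 and 0.00 for rises, -0.16 and -0.09 for falls), and pool 3 follows the dashed line (medians 1.11 and -1.03).

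The treated pools differed among themselves along the same genes. Treated pool 3 minus the mean of treated pools 1 and 2, a difference that shares no array with the main comparison, was above 0 for 81 of the 90 rises (90%, against 47.1% of all probe sets tested) and below 0 for 85 of the 92 falls (92.4%, against 50.9%). Its median was 0.94 over the rises and -0.90 over the falls, and across all 9889 probe sets it correlated with the main difference at r = 0.62. The corresponding r was -0.37 for treated pool 2 and -0.21 for treated pool 1, each against the mean of the other 2 pools. These 3 contrasts add up to 0, so they are not separate results. Treated pool 3 was set apart after it was seen to lie with the single brains, so its higher r followed in part from that choice. Split by deposited scale instead, the median over the rises was 0.83 from treated pools 2 and 3 to the single brains, 0.44 from treated pool 1 to treated pools 2 and 3, and 0.00 from the untreated pools to treated pool 1. Over the falls these steps were -0.63, -0.35 and -0.16. With the deposited scale as a term in the fit, 1 probe set passed the threshold, which was not among the 182, and 171 of the 182 kept their direction. No untreated pool shares a scale with a single brain, so this term was set only by treated pool 1 against treated pools 2 and 3. Estimates from that fit are therefore imprecise, and the part of scale in calls lost there was not tested. Of the treated pools deposited on the lower scale, pool 3 was near the single brains at these genes and pool 2 was near the untreated pools.

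Probe sets of adult haemoglobin genes were among the falls in the single brains, whereas those of the embryonic globins had no call. Hbb-b2, which encodes an adult beta-globin, stood at 10.50, 10.57 and 10.44 in the untreated pools and at 7.87, 7.84, 8.95, 7.68 and 7.37 in brains 11, 12, 13, 14 and 16. All brains lay below all untreated pools, 5.91-fold on average (log2 difference -2.56, SE 0.32, limma adjusted p = 0.0149), and the call stayed without any 1 of the 8 arrays. Treated pools 1 and 2 stood at 9.81 and 10.45 and treated pool 3 at 8.22. The probe set of Hba-a1, an adult alpha-globin, read 13.41, 13.34 and 12.95 in the untreated pools against 11.48, 11.24, 12.28, 11.40 and 10.75 in the brains, with treated pools at 13.00, 13.12 and 11.58. This fall of 3.49-fold (-1.80, SE 0.31, limma adjusted p = 0.04) lost its call when untreated pool 1, untreated pool 2 or brain 11, 12, 14 or 16 was left out. The probe set shared by Hba-a1 and Hba-a2 had the smallest spread: 11.86, 11.95 and 11.92 in the untreated pools, 10.67, 10.46, 10.68, 10.56 and 10.38 in the brains, and 11.64, 11.65 and 10.69 in the treated pools. It fell by 1.36 (2.57-fold, SE 0.13, limma adjusted p = 0.00511) and kept its call without each array in turn and with separate variances (adjusted p = 0.0333). The call was lost in the fit with the treated pools (adjusted p = 0.0532) and with the deposited scale as a term (adjusted p = 0.797). Of the embryonic globins, Hba-x differed by -0.24 (adjusted p = 0.777) and Hbb-y by -0.47 (adjusted p = 0.394), while a second Hbb-y probe set was above the floor in 2 brains and in no untreated pool. Their means in the untreated pools were 8.86 for Hba-x and 7.53 for the first Hbb-y probe set, and Hbb-bh1 was at the floor there. With the floor at 6.77, Hbb-y and Hbb-bh1 could not show falls as large as those of the adult genes.

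In pools without ischemia the shared alpha-globin probe set read 10.77, 10.59 and 10.90 in the control pools and 10.86, 10.89 and 10.80 in the drug control pools, close to the single brains and to treated pool 3. The alpha-globin pseudogene Hba-ps3 fell too, from 11.76, 12.29 and 12.53 in the untreated pools to between 9.81 and 11.18 in the brains (-1.99, SE 0.34, limma adjusted p = 0.0395). For Hba-ps3 the levels without ischemia did not lie with the brains in general: the control pools read 10.46, 10.07 and 12.56 and the drug control pools 11.90, 11.93 and 12.25, so 4 of these 6 pools were above all brains. A probe set common to 4 adult beta-globin genes differed by -2.50 (SE 0.56) but its adjusted p was 0.0637. Globin genes are near-identical copies, so which copy a probe set measured is uncertain. Of the 13 tested members of a red cell list, which also holds haem synthesis and erythroid factors, 10 were lower (76.9%, against 52.7% of all genes). Hba-a1 and Hbb-b2, 2 of these 13, passed the test (15.4%, against 1.69% of all genes). Alas2, the erythroid enzyme of haem synthesis, differed by 0.07. The list median was -0.47 in the single brains and -0.23, 0.18 and -0.50 in treated pools 1 to 3, beside -0.03 over all 7102 genes tested. Of the 4 markers fixed for red cells, 3 were on the array, and only Hba-a1 lay above the floor on every brain and every untreated pool. Their summed intensity was 2067 to 5415 in the brains, 8144 to 11194 in the untreated pools and 3440 to 9512 in the treated pools. This sum is mostly that of Hba-a1, so it is not a separate result. The part of residual blood in this result was not tested.

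Since the alpha- and beta-globin transcripts moved together, the 250 bases upstream of the start of one gene of each kind are printed from RefSeq, 5' to 3' on the strand of the gene (build GRCm38.p6, Hba-a1 at chr11:32283422-32283671, forward strand, and Hbb-bs at chr7:103827929-103828178, reverse strand). The beta-globin call was on the probe set of Hbb-b2, whereas Hbb-bs, whose window is printed, had no call. Hbb-bs was read only by probe sets shared with other adult beta-globin genes. The brighter of these differed by -2.50 (limma adjusted p = 0.0637), and the other was at the floor on every array. Capitals mark every CCAAT as well as every CACCC and every TATAA, which were searched on both strands.
Hba-a1: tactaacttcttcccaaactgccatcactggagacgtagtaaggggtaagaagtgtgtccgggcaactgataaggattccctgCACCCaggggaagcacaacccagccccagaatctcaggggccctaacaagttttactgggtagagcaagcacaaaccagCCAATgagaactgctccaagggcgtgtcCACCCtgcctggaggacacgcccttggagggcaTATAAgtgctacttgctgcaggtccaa
Hbb-bs: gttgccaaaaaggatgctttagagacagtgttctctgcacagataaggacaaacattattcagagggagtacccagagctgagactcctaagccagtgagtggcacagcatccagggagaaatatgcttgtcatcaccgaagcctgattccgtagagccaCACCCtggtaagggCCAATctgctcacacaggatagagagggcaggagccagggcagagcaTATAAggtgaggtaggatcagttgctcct
Both windows hold all of these motifs, Hba-a1 with CACCC at 2 places. Of 32851 promoter windows of this length in the same table, 33.9% hold CCAAT, 52.0% CACCC and 22.8% TATAA on either strand, and 3.28% hold all of them. A match describes these letters and shows no binding.

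**Figure D3:**
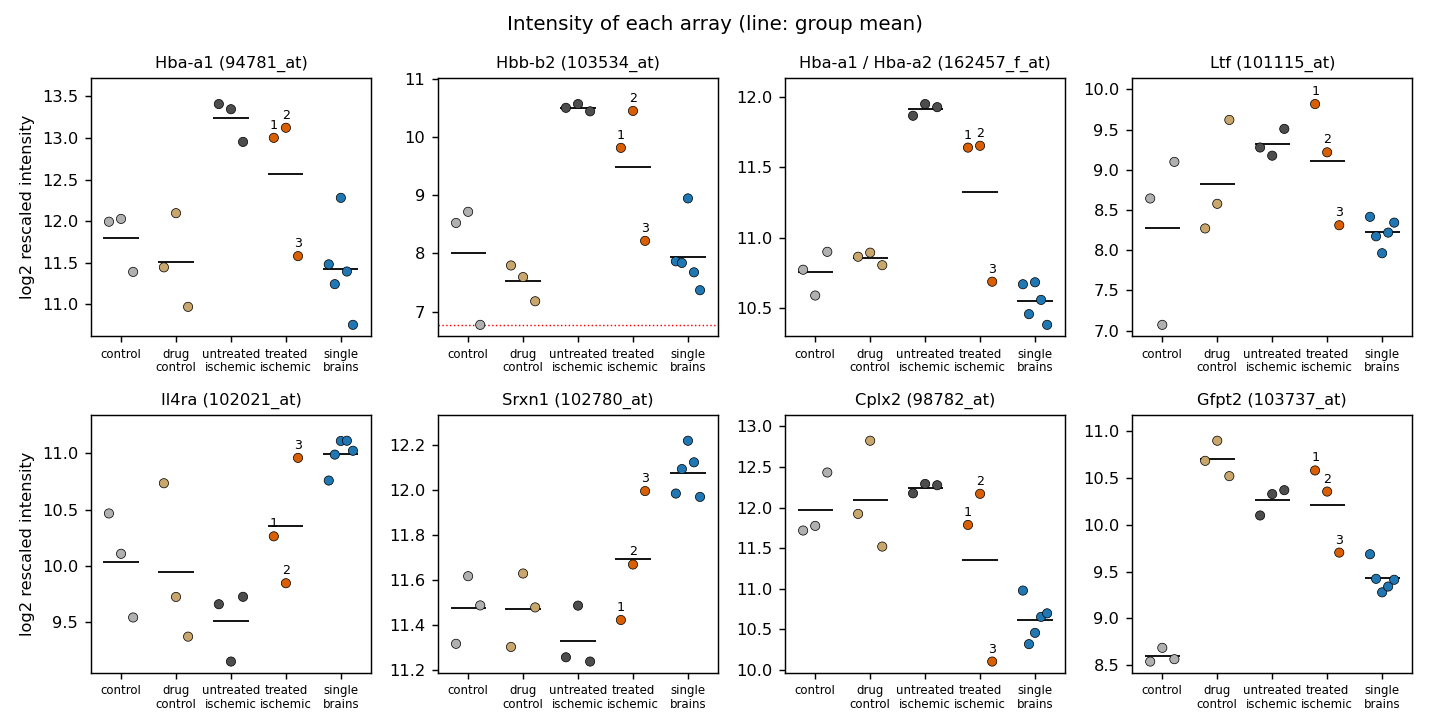
Log2 rescaled intensity (y axis) of 8 probe sets on each array, by group (x axis), with group means as lines, the floor of 6.77 dotted where it falls in range and treated pools numbered 1 to 3. For the globin probe sets, Ltf, Cplx2 and Gfpt2 the single brains lie below the untreated pools, for Il4ra and Srxn1 above, and treated pool 3 is the treated pool nearest to the brains in each panel.

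Among neutrophil genes 1 of 17 passed the test (5.88%, against 1.69% of all genes), and it fell. Ltf, which encodes the granule protein lactoferrin, read 9.28, 9.18 and 9.51 in the untreated pools and 8.42, 8.17, 7.96, 8.22 and 8.34 in the brains. The brains lay below every untreated pool, 2.14-fold on average (-1.10, SE 0.15, limma adjusted p = 0.0218), and the call was lost without brain 12 or brain 14. The treated pools, in the order 1 to 3, read 9.82, 9.22 and 8.31, so treated pool 3 was in the range of the brains and the other 2 were not. Of the 17 genes tested, 16 had lower and 1 higher means, with a median of -0.65 against -0.03 over all genes, and 5 had an unadjusted p under 0.05 (29.4%, against 22.6% of all genes). S100a9 (-0.93), the antimicrobial peptide gene Camp (-0.93) and the myeloperoxidase gene Mpo (-0.90) came next to Ltf without passing the test, and S100a8 differed by -0.59 (adjusted p = 0.378). Per array, the list median relative to the untreated mean ran from -0.98 to -0.37 in the brains and from -0.15 to 0.43 in the untreated pools, and it was 0.21, 0.08 and -0.43 in treated pools 1 to 3. All 6 defining markers fixed for neutrophils were on the array, of which Ngp sat at the floor on every array, and their summed intensity was 1647 to 2470 in the brains, 2732 to 3315 in the untreated pools and 1865 to 3617 in the treated pools. With a floor at the 40th percentile the list median was -0.30, and the adjusted p of Ltf was 0.0524.

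Most cytokine and chemokine genes had lower means in the single brains, and none passed the test. For Cxcl1, a chemokine that attracts neutrophils, the brains read 11.07, 11.05, 10.10, 11.02 and 10.07 against 11.76, 12.33 and 11.66 in the untreated pools. The groups did not overlap, but the difference of -1.25 (SE 0.32) had a limma adjusted p of 0.0831, and a second Cxcl1 probe set differed by -0.91 (adjusted p = 0.0817). For the first, the treated pools read 11.18, 11.67 and 10.61. Il6, a cytokine of the acute phase, read 9.91, 9.20 and 7.84 in the untreated pools and 7.16, 7.46, 6.77, 7.94 and 6.77 in the brains, so brain 14 overlapped with untreated pool 3 (difference -1.76, SE 0.47, adjusted p = 0.091). The treated pools read 8.40, 8.26 and 6.77. Cxcl2, a close relative of Cxcl1, differed by -1.48 (adjusted p = 0.156), Ccl2, which recruits monocytes, by -0.62 and Ccl3 by -0.28. Of 27 genes in the list 0 passed limma's test and 5 had an unadjusted p under 0.05 (18.5%, against 22.6% of all genes). Of them 18 were lower and 9 higher, with a median of -0.26 in the single brains and 0.00, -0.21 and -0.07 in the treated pools. Chemokine genes with higher means were there as well, among them Ccl9 (0.98) and Ccl4 (0.93).

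Among targets of the NF-kB pathway and leukocyte adhesion genes, 2 of 41 passed the test (4.88%, against 1.69% of all genes), both as rises. Il4ra, which encodes the receptor chain for interleukins 4 and 13, read 9.66, 9.15 and 9.73 in the untreated pools and 10.76, 10.99, 11.11, 11.11 and 11.02 in the brains. The brains stood 2.80-fold above the pools with no overlap (1.48, SE 0.17, limma adjusted p = 0.0104), and this call stayed without each array in turn and with separate variances (adjusted p = 0.0398). It was lost in the fit with the treated pools (adjusted p = 0.0549) and with the deposited scale as a term (adjusted p = 0.754). Treated pools 1 to 3, at 10.26, 9.85 and 10.96, were all above the highest untreated pool. A dimmer second probe set of Il4ra differed by -0.71 (adjusted p = 0.344). Nfkbie, an inhibitor of NF-kB, rose by 2.03 (limma adjusted p = 0.0471), but 2 of 3 untreated pools and treated pools 1 and 2 were at the floor. The adhesion molecule gene Icam1 read 10.30, 9.55 and 9.52 in the untreated pools and 8.78, 9.05, 9.97, 8.58 and 9.68 in the brains, which overlapped (-0.58, adjusted p = 0.36). The list median was -0.07, and 17 genes were higher and 24 lower. An unadjusted p under 0.05 was reached by 11 of them (26.8%, against 22.6% of all genes).

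The interferon list gave 1 call among 36 genes (2.78%, against 1.69% of all genes), for its regulator. Irf7, the transcription factor that amplifies type I interferon, read 10.23, 10.17 and 10.63 in the untreated pools and 9.54, 9.20, 8.72, 9.22 and 9.29 in the brains, a fall of 2.22-fold (-1.15, SE 0.21, limma adjusted p = 0.0423). The treated pools were at 10.93, 10.51 and 10.05, so none entered the range of the brains. The call was lost in 7 of the 8 fits without 1 array, and a second Irf7 probe set differed by -0.59 (adjusted p = 0.25). Of the 36 genes in the list 23 had higher means (63.9%, against 47.3% of all genes) and 13 lower, from Mx2 (-1.02) to Isg15 (1.19), with a median of 0.16 beside 0.31, 0.17 and 0.10 in the treated pools. Ifi27l2a, an interferon-induced gene that is not in the list and was chosen after its values were seen, rose from 6.77, 6.98 and 6.77 in the untreated pools to 8.79, 8.67, 8.53, 7.997 and 8.44 in the brains (1.64, SE 0.19, limma adjusted p = 0.0105). It kept this call without each array in turn and lost it in the fit with the treated pools (adjusted p = 0.109). The treated pools read 8.99, 6.77 and 7.96, and the control pools 8.15, 8.63 and 6.77.

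Immediate early and heat shock genes, some of which ischemia induces strongly, had no call in limma. An unadjusted p under 0.05 was reached by 5 of 32 (15.6%) and 3 of 35 (8.57%) of them, against 22.6% of all genes. Fos, a component of the AP-1 transcription factor, read 15.40, 15.42 and 15.15 in the untreated pools and 14.74, 14.55, 14.48, 15.23 and 14.86 in the brains, with brain 14 inside the range of the untreated pools. Its difference of -0.56 (SE 0.19) had a limma adjusted p of 0.149. Egr1, an early growth response factor, differed by -0.05 and the stress factor Atf3 by -0.37, and both groups of arrays overlapped. A second Atf3 probe set differed by 0.08 (limma adjusted p = 0.881). Of 32 immediate early genes 25 had lower means (78.1%, against 52.7% of all genes), with a median of -0.22 in the single brains and -0.15, -0.15 and -0.25 in treated pools 1 to 3. Hspa1a and Hspa1b, the inducible Hsp70 chaperones, were bright in every ischemic array. Hspa1a read 16.46, 16.26 and 16.46 in the untreated pools and 16.28, 16.36, 16.03, 16.48 and 16.18 in the brains (-0.13, SE 0.15, adjusted p = 0.634). Over 35 heat shock genes the median was -0.03, with 16 higher and 19 lower.

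Antioxidant genes split in direction. Srxn1, which encodes sulfiredoxin and restores oxidised peroxiredoxins, read 11.26, 11.49 and 11.24 in the untreated pools and 11.99, 12.10, 12.22, 12.12 and 11.97 in the brains. Every brain exceeded every untreated pool, by 1.68-fold on average (0.75, SE 0.13, limma adjusted p = 0.04), and of the treated pools, at 11.42, 11.67 and 12.00, the first lay in the range of the untreated pools and the third in that of the brains. Nqo1, a quinone reductase controlled by the same factor Nrf2, moved the other way: 8.53, 8.61 and 8.77 in the untreated pools and 7.56, 8.10, 7.91, 7.57 and 7.54 in the brains, a fall of 1.87-fold (-0.90, SE 0.18, limma adjusted p = 0.0465). Treated pools 1 to 3 were at 8.35, 8.44 and 8.48, just below the untreated pools and above all brains. Both calls were weak, since that of Srxn1 was lost without any 1 of the brains and that of Nqo1 in 7 of the 8 fits without 1 array. Hmox1, which encodes the haem-degrading enzyme heme oxygenase 1, differed by -0.42 (adjusted p = 0.326). The mitochondrial superoxide dismutase gene Sod2 differed by -0.62, the cytosolic Sod1 by -0.07 and the extracellular Sod3 by 0.24. Of 45 genes in the list 2 were called (4.44%, against 1.69% of all genes), and 27 were higher and 18 lower, with a median of 0.10.

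Gfpt2, which encodes an enzyme of hexosamine synthesis, was lower in the single brains than in the untreated pools and higher than in the control pools. It read 8.54, 8.68 and 8.56 in the control pools, 10.69, 10.90 and 10.52 in the drug control pools and 10.10, 10.33 and 10.37 in the untreated ischemic pools. The single brains, with both drug and ischemia, read 9.69, 9.42, 9.28, 9.34 and 9.41, and treated pools 1 to 3 read 10.58, 10.36 and 9.70. The brains lay between the control pools and the untreated ischemic pools with no overlap on either side. The fall against the untreated ischemic pools was 1.79-fold (-0.84, SE 0.15, limma adjusted p = 0.04), and it lost its call in 6 of the 8 fits without 1 array (highest adjusted p = 0.0929) and with arrays scaled to a common median (adjusted p = 0.0528).

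Of genes known from neurons, Cplx2, Neurod6, Pde1a and Plcb1 fell. In the lists for neurons, 1 of 24 cortical and hippocampal genes (4.17%), 1 of 39 synaptic vesicle genes (2.56%) and 0 of 18 striatal genes passed limma's test, against 1.69% of all genes. An unadjusted p under 0.05 was reached by 5, 6 and 1 of them (20.8%, 15.4% and 5.56%, against 22.6% of all genes). Pde1a and Plcb1 were named by size of change. Cplx2, which encodes complexin 2, a clamp on the vesicle fusion machinery at glutamate synapses, read 12.18, 12.29 and 12.28 in the untreated pools and 10.98, 10.31, 10.45, 10.65 and 10.69 in the brains. This fall was 3.09-fold (-1.63, SE 0.17, limma adjusted p = 0.00717), with no overlap, and stayed a call without each array in turn. Treated pools 1 and 2 were at 11.78 and 12.17, and treated pool 3 was at 10.10, below all brains. Neurod6, a transcription factor of cortical projection neurons, read 9.83, 9.72 and 9.33 in the untreated pools and 8.04, 8.18, 8.69, 7.52 and 8.36 in the brains (-1.47, SE 0.26, adjusted p = 0.0417), with treated pools at 8.25, 9.35 and 8.56. Pde1a, a calmodulin-dependent phosphodiesterase, fell by 1.31 (adjusted p = 0.0228) and Plcb1, the phospholipase C of muscarinic and glutamate signalling, by 1.63 (adjusted p = 0.0465). Another probe set of Pde1a differed by -0.15 (adjusted p = 0.739), and the 2 others of Plcb1 by -0.55 each (adjusted p = 0.269 and 0.619). Plcb1 was at 7.78 in treated pool 2, far below the 11.81 and 12.11 of treated pools 1 and 3.

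Chga, Pcsk1n, Pnoc, Kcnj9 and Ap2s1 rose. Chga, which encodes chromogranin A of dense core granules, read 11.35, 11.22 and 11.79 in the untreated pools and 12.51, 12.54, 12.42, 12.63 and 12.66 in the brains, with treated pools at 11.24, 10.74 and 12.45. It was 2.14-fold higher in the brains (1.10, SE 0.16, limma adjusted p = 0.0241), although a second probe set differed by -0.52, and the call was lost without any 1 of the brains. Pcsk1n, an inhibitor of prohormone convertase 1, rose by 0.73 (adjusted p = 0.0479) and Pnoc, the precursor of nociceptin, by 1.88 (adjusted p = 0.04). Kcnj9, a subunit of G protein-gated potassium channels, rose by 2.72 (adjusted p = 0.0315) and Ap2s1, the small subunit of the AP-2 clathrin adaptor, by 2.80 (adjusted p = 0.0443). Untreated pool 3 was at the floor for both Pnoc and Ap2s1. Treated pools 1 to 3 read 6.77, 7.47 and 8.49 for Pnoc and 8.11, 6.77 and 10.58 for Ap2s1. The call of Pnoc was lost without any 1 of the brains. A second Kcnj9 probe set, at 10.84 in the brains and 10.90 in the untreated pools, differed by -0.05 (adjusted p = 0.897). Chga and Pcsk1n lay outside the rule by which genes were chosen and were picked after their values were seen. Of 39 genes of the synaptic vesicle list 27 had higher means (69.2%, against 47.3% of all genes) and 12 lower, with a median of 0.14, and Cplx2 was the only call.

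The largest rises by the rule were led by Srsf4 and Ubn1, and most began near the floor. Srsf4, a splicing factor, read 9.70, 8.58 and 6.81 in the untreated pools and 11.59, 11.22, 11.27, 11.62 and 11.16 in the brains (3.01, SE 0.55, limma adjusted p = 0.0427). Treated pools 1 to 3 were at 10.90, 9.38 and 11.05, and the control pools spanned 7.66 to 11.62, while a second Srsf4 probe set differed by 0.33 (adjusted p = 0.648). Ubn1, a histone chaperone subunit, read 8.63, 6.77 and 6.77 in the untreated pools and 9.87 to 10.97 in the brains (2.97, SE 0.45, adjusted p = 0.0267), and all treated pools, at 10.75, 9.31 and 10.35, exceeded the untreated pools. Without ischemia Ubn1 was high as well in most pools, at 10.88, 9.28 and 9.65 in the control pools and 10.89, 6.77 and 11.34 in the drug control pools. Ten1 of the telomere CST complex (2.73), Pold4 of DNA polymerase delta (2.51), Ino80e of a chromatin remodeller (2.24), Ints9 of the Integrator complex (2.20) and Gtf3c5 of RNA polymerase III initiation (2.11) rose as well, but in each of these at least 1 treated pool lay below the highest untreated pool. Of the 15 largest rises taken by the rule, 5 had every untreated pool above the floor. Treated pool 3 exceeded the highest untreated pool in 14 of them, treated pool 1 in 6 and treated pool 2 in 4. The exception was Ino80e, at 7.02 in treated pool 3 against 9.24 to 10.07 in the brains. A much brighter Ino80e probe set differed by only 0.38 between brains and untreated pools (limma adjusted p = 0.247).

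Nacc2, Commd5 and Arfgap3 rose from untreated pools that were all above the floor. Nacc2, a transcriptional repressor with a BTB domain, read 11.15, 11.83 and 10.55 in the untreated pools and 12.85, 13.12, 12.81, 13.10 and 13.05 in the brains (1.81, SE 0.27, limma adjusted p = 0.0239). Treated pools 1 to 3 read 12.01, 11.72 and 12.66. Another bright Nacc2 probe set differed by -0.14 (adjusted p = 0.698). Commd5 read 8.68, 8.51 and 7.80 in the untreated pools and 9.77 to 10.40 in the brains (1.75, SE 0.24, adjusted p = 0.0186), with treated pool 1 at the floor, pool 2 at 8.79 and pool 3 at 9.87. Arfgap3, a regulator of Golgi vesicle coats, read 9.71, 9.33 and 8.64 in the untreated pools and 10.65 to 11.29 in the brains, and treated pools 1 to 3 read 9.82, 10.13 and 11.28. In the control pools Nacc2 read 12.19, 12.88 and 11.40, Commd5 10.16, 10.75 and 9.17, and Arfgap3 10.38, 10.28 and 9.88. Mep1b, the beta subunit of the protease meprin, completed the rises of the rule at 2.52, but untreated pools 2 and 3 and treated pools 1 and 2 were at the floor. A second Mep1b probe set differed by 0.15 (limma adjusted p = 0.881).

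Beside the globins, the falls of the rule included Igfbp7, Gzmb and Rragd. Igfbp7, an insulin-like growth factor binding protein of vessel walls, read 10.01, 11.07 and 10.77 in the untreated pools and 8.61, 8.29, 7.95, 8.09 and 9.65 in the brains (-2.10, SE 0.41, limma adjusted p = 0.0479), with treated pools at 11.00, 11.33 and 8.85. Gzmb, a protease of cytotoxic lymphocytes, fell by 1.48 (adjusted p = 0.04), from between 8.71 and 8.95 in the untreated pools to between 6.77 and 7.96 in the brains. Treated pool 1, at 9.29, was above the untreated pools for Gzmb, and treated pools 2 and 3, at 7.60 and 6.79, were in the range of the brains. Rragd, a GTPase that brings amino acid signals to mTORC1, fell by 1.40, and Gtf2ird2, a transcription factor relative, by 1.72 (adjusted p = 0.0181). Rae1, an mRNA export and spindle factor, fell by 1.92, the zinc transporter gene Slc39a4 by 1.83, Etv4, an ETS transcription factor, by 1.51 and 1810044D09Rik, with no role given here, by 1.66. Second probe sets of Rae1, Gtf2ird2 and Etv4 differed by only -0.12, -0.05 and -0.12 (limma adjusted p = 0.856, 0.898 and 0.659). That of Slc39a4 differed by 0.98 (adjusted p = 0.405). In all 15 falls treated pool 3 lay below the lowest untreated pool, whereas treated pool 1 did so in 7 and treated pool 2 in 5. Hbb-b2, Rae1, Gtf2ird2 and Cplx2 were the genes of the rule, 4 of 30, whose called probe set kept its call in all fits without 1 array. In limma's fits with the treated pools, with separate variances and with the deposited scale as a term, 0 of these 30 were called.

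Some rises started from untreated pools that were all at the floor, so only a lower bound can be given. This was so for 17 of the 90 rises, and in 3 of the 92 falls all the brains were at the floor. One probe set of Plekho1, an adaptor of PI3 kinase and Akt signalling, was at 6.77 in all untreated pools and at 9.79, 9.93, 10.82, 10.37 and 10.12 in the brains, at least 10.8-fold higher. Treated pools 1 to 3 read 6.77, 8.13 and 10.26, and a second Plekho1 probe set rose by 2.18. Inhbb, the beta B subunit of activins, was at 8.34 to 8.57 in the brains and at the floor in all untreated, control and drug control pools, at least 3.19-fold higher, with treated pool 3 at 7.89 and the other treated pools at the floor. Tradd, the adaptor of the TNF receptor 1, was at 9.73 to 10.32 in the brains, at least 9.92-fold higher, and at 6.88, 11.04 and 9.81 in treated pools 1 to 3, although the difference was -0.24 with the deposited scale as a term. It read 9.96 in control pool 2 and 10.79 in drug control pool 2 with the other 4 of these pools at the floor. These genes were chosen after their values were seen.

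Other probe sets of the called genes often gave another answer. Of 85 genes with a rise, 30 had a further tested probe set, and the brightest of these had the same sign in 14 and the opposite sign in 16. Plekho1 was the only gene with 2 probe sets called in the same direction. Of 68 genes with a fall, 30 had a further tested probe set, with the same sign in 17 and the opposite in 13. Tbx2, a T-box transcription factor, was called in both directions, with 1 probe set at 8.91, 9.11 and 10.70 in the untreated pools and at the floor in all brains (-2.79), and another that rose by 2.03. Probe sets whose name carries a suffix for cross-hybridisation or design compromise made up 14.4% of the rises and 37.0% of the falls, against 20.5% of all tested. The 581 with the r suffix, which marks relaxed rules of probe selection, had a median of -0.32 in the single brains and 0.08, -0.03 and -0.25 in treated pools 1 to 3.

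The genes called between single brains and treated pools were Gpr3, Bbs9, Fbln1 and 1 probe set with no gene symbol, all higher in the brains. Gpr3, a receptor of neurons that raises cyclic AMP without a ligand, read 9.81, 9.03, 9.63, 9.74 and 9.45 in the brains. All treated pools were at the floor for it (limma adjusted p = 0.000321 against them), as were untreated pools 2 and 3, and untreated pool 1 read 7.11. Against the untreated pools it rose by 2.65 (SE 0.21, limma adjusted p = 0.00195). Bbs9 is a part of the complex that carries cargo into cilia. Its called probe set was at 8.92 to 9.36 in the brains and at the floor in each treated pool. That of Fbln1, an extracellular matrix protein gene, was at 7.89 to 8.52 in the brains and at the floor in all ischemic pools. A brighter Bbs9 probe set read 10.21, 9.997 and 10.12 in treated pools 1 to 3 and 9.92 to 11.05 in the brains. It differed by 0.64 from the untreated pools (limma adjusted p = 0.31). Brighter Fbln1 probe sets, above the floor in every ischemic pool, differed from the untreated pools by -0.30 and -0.03 (limma adjusted p = 0.346 and 0.946). For the called probe sets of Gpr3, Bbs9 and Fbln1, treated pool 3 was not with the single brains. Leaving out treated pool 3 raised the count for this comparison from 4 to 98, of which 51 were higher and 47 lower in the single brains.

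Of 37 gene lists 9 held a call and 28 held none. None of 18 oligodendrocyte genes, 32 astrocyte genes, 38 microglia and complement genes or 50 endothelial and mural genes passed limma's test, and 2, 8, 9 and 16 of them had an unadjusted p under 0.05 (11.1%, 25%, 23.7% and 32%, against 22.6% of all genes), with medians of 0.18, 0.11, -0.06 and -0.04, the last of them 0.08 after quantile normalization. The oligodendrocyte median was -0.04 and -0.12 in treated pools 1 and 2 and 0.19 in treated pool 3. The respiratory chain list had 43 of 63 genes higher (68.3%, against 47.3% of all genes) with a median of 0.10, no call and 13 genes at an unadjusted p under 0.05 (20.6%). Rpl22, a ribosomal protein of the large subunit, rose by 0.69 (SE 0.13, limma adjusted p = 0.0465), the 1 call among 30 ribosomal protein genes (3.33%, against 1.69% of all genes). A dimmer second probe set of Rpl22 differed by -0.75 (adjusted p = 0.432). The calls of Rpl22 and Pcsk1n were each lost in 7 of the 8 fits without 1 array. Drd2, the dopamine D2 receptor of striatal neurons, read 10.20, 10.62 and 11.24 in the untreated pools and 10.38, 10.24, 10.95, 10.43 and 10.28 in the brains, which overlapped. Xist, a marker of female tissue, was at the floor in all single brains. Of the lists of genes foreign to brain, skeletal and cardiac muscle had a median of -0.25 over 38 genes, liver and plasma proteins -0.26 over 25, lens and photoreceptor genes -0.31 over 16 and testis and germ cell genes 0.00 over 21. In limma 0 of them were called, with 8, 4, 3 and 2 at an unadjusted p under 0.05 (21.1%, 16%, 18.8% and 9.52%, against 22.6% of all genes). In the muscle list treated pools 1 to 3 had medians of -0.11, 0.05 and -0.23, in the liver list 0.38, 0.19 and -0.21, and in the testis list 0.22, 0.54 and 0.16. Ccna2, a cyclin of the S and G2 phases, was at 8.91, 9.23 and 8.49 in the untreated pools, at the floor in each treated pool and in brains 12, 13 and 14, and at 8.91 and 7.56 in brains 11 and 16 (-1.52, adjusted p = 0.134). Aldh1a3, which makes retinoic acid, was likewise at 8.34, 8.75 and 8.42 in the untreated pools and at the floor in each treated pool, and 2 of the 5 brains were above the floor (-1.40, adjusted p = 0.0789).

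**Figure D4:**
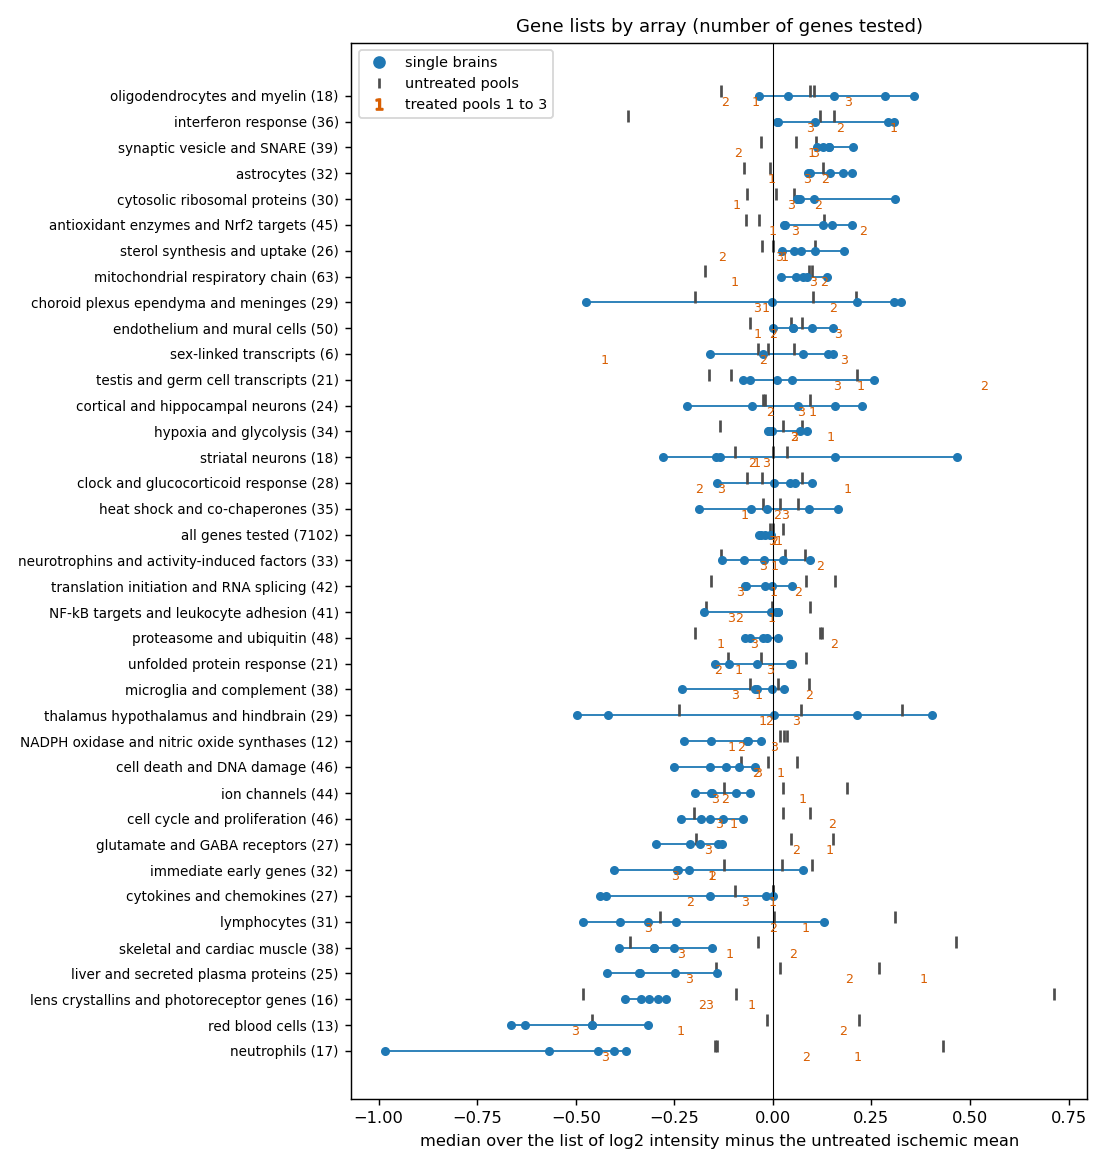
Median over each gene list (y axis, number of genes tested in brackets) of the log2 difference from the untreated mean (x axis), for each single brain (blue points joined by a line), untreated pool (black ticks) and treated pool (orange digits 1 to 3). All brains lie below 0 in the neutrophil list, from -0.98 to -0.37, and in the red blood cell list, from -0.67 to -0.32, and over all genes the values lie close to 0.

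The difference depended on the level of the gene. In 10 bins of mean level, 989 probe sets in most bins, the median difference was -0.17 and -0.25 in the lowest bins and rose to 0.07 in the top bin. Treated pool 3 had medians of -0.20 and -0.17 in the same low bins and 0.06 in the top bin, and treated pool 1 had -0.12, 0.04 and -0.02. Lists of dim genes, such as the neutrophil, liver and muscle lists, lie where all probe sets have medians below 0. The part of this slope in their medians was not tested.

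**Figure D5:**
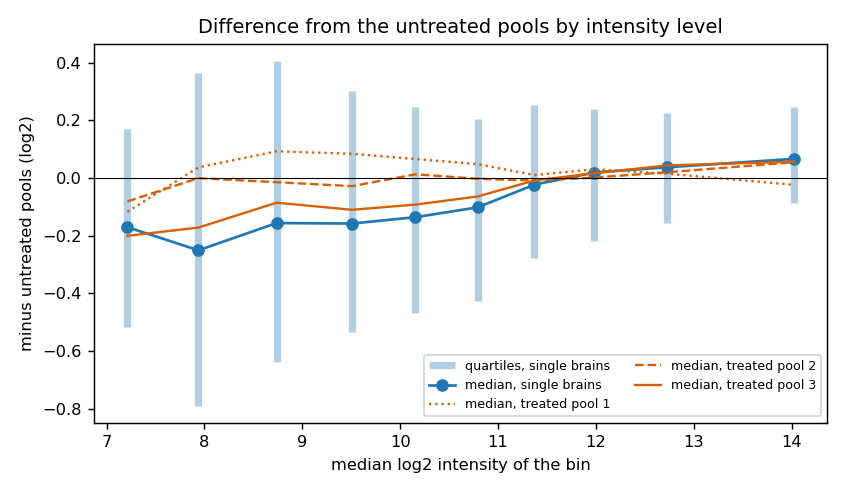
Log2 difference from the untreated pools (y axis) in 10 bins of probe sets by median log2 intensity (x axis), as medians for the single brains (blue, with quartiles as bars) and for each treated pool (orange lines). The medians of the single brains go from -0.17 and -0.25 in the lowest bins to 0.07 in the top bin, and treated pool 3 runs beside them.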

How the data were processed

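The deposited files of the authors hold 1 linear intensity for each probe set on an array, with 15.2% to 19.3% of values below 0 on an array. What software and scaling produced them is not stated in the labels or files used here. Groups were taken from the titles and, for the single brains, from the descriptions. Each array was multiplied to a 2 to 98% trimmed mean of 2500, floored at 109.5, the 25th percentile over the pooled arrays after scaling, and put on the log2 scale. The 66 control probe sets were left out. The platform annotation gave 1 gene symbol for 10855 of 12488 probe sets, several for 396 and none for 1237, and 10839 symbols matched RefSeq's table through Entrez numbers.

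A fit took the probe sets that exceeded the floor on 3 or more of its arrays, and the test was limma 3.58.1 in R 4.3.3 (lmFit, eBayes, two-sided, Benjamini-Hochberg over all tested, threshold 0.05). The main comparison was fitted on 5 single brains and 3 untreated pools, with 6 residual and 2.22 prior degrees of freedom. The treated pools were compared in a fit of 3 groups. Genes were named by a rule: among called probe sets with 1 symbol, 15 rises and 15 falls in order of size, both means at least 0.5 above the floor and no overlap, then up to 3 called members of each gene list, and a set of stress, inflammatory and marker genes by name. Lists used the brightest probe set of a gene. The compared arrays, the lists and the rule were chosen with earlier results of these data known. Arrays carry no read depth, and their number limits the precision. The fits were tested on simulated data. Python 3.11.15, pandas 2.3.3 and matplotlib 3.10.9 were used for the rest.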

Additional observations from a re-analysis of the deposited data

Results flagged for a closer look

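Among the 5 single brains, 90 sets of values (named genes and gene lists) were checked for 1 brain far from the other 4, and 6 stood out. Chance gives about 1 in 20, so this count is near that due by chance. Transthyretin (Ttr), the marker of choroid plexus, was at the floor of 6.77 in brain 11 and between 12.82 and 13.95 in the other brains. The alpha-globin pseudogene Hba-ps3 was at 11.18 in brain 11, above the 9.81 to 10.16 of the others. The dopamine receptor gene Drd2 was at 10.95 in brain 13, above the 10.24 to 10.43 of the others. Of the gene lists, that of NF-kB targets and leukocyte adhesion genes had a median of -0.17 relative to the untreated pools in brain 16, while the others lay within 0.01 of 0. The cytosolic ribosomal protein list stood at 0.31 in brain 12 against 0.06 to 0.10 in the others, and the microglia and complement list at -0.23 in brain 12 against -0.05 to 0.03.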

How the results depend on the processing

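The 182 calls between single brains and untreated pools became 393 with the floor at the 40th percentile, 78 with it at the 20th, 308 with no filter, 14 with all 17 arrays in 1 fit, 11 in the fit with the treated pools, 17 with separate variances and 1 with the deposited scale as a term. Without 1 array in turn they ranged from 48 to 449 (449, 216 and 279 without untreated pools 1 to 3, and 60, 50, 48, 52 and 54 without brains 11, 12, 13, 14 and 16), and 31 of 182 stayed called in each. Median scaling (189), quantile normalization (155), a floor passed on every array (229) and groups by the descriptions (183) stayed within 1.5 times, and 144, 140, 110 and 112 of the 182 were among these calls. In all of these fits but the scale term, each of the 182 that was tested kept its direction. With the scale term 11 of the 182 reversed: Ints9 (-0.0328), Commd5 (-0.81), Plcb1 (0.23), Gzmb (0.62), Tradd (-0.24), Fam220a (-0.91), Fmc1 (-0.79), Rgn (-0.35), Prkag1 (-0.20), Gnaq (0.00404) and 1 probe set with no symbol (0.98). The cause was not tested.

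Treated against untreated pools gave 1 call with the floor at the 20th percentile, 3 with groups by the descriptions, 2 with treated pool 1 alone, 3 with treated pools 1 and 2, 1 with treated pool 3 alone, 0 to 5 without 1 array in turn, and 0 with the replicate number as a block. The deviations of same-numbered untreated and treated pools from their group means correlated at 0.06, 0.38 and -0.16 for numbers 1 to 3, and of the 3 numbers only number 2 had both pools correlate best with each other, so the numbers were not taken as pairs. Single brains against treated pools gave 0 calls with the floor at the 40th percentile, 10 with median scaling, 10 with quantile normalization, 0 with probe sets above the floor on all arrays, 7 with groups by the descriptions, 8 with treated pools 2 and 3, 0 with treated pool 3 alone, 98 with treated pools 1 and 2, and 4 to 98 without 1 array in turn (9 each without brain 11 or 12, 8 without treated pool 1 and 98 without treated pool 3). A lone pool was assumed to vary like the other groups.

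After quantile normalization, list medians were -0.0481 for cell death, 0.0081 for NADPH oxidase, 0.0349 for neurotrophins, 0.0585 for the respiratory chain, 0.0794 for endothelium and -0.22 for lens genes. With the floor at the 40th percentile they were -0.00459 for cell death, -0.0525 for translation and splicing, -0.30 for neutrophils, -0.76 for lens genes and -0.46 for liver and plasma proteins. With the mean of all probe sets of a gene they were -0.0218 for ion channels, 0.0952 for synaptic vesicles, -0.081 for the proteasome, 0.00908 for sterol synthesis and 0.0962 for endothelium. The floor at the 20th percentile and the fits with treated pool 3 alone or left out by choice were added after seeing the data. A floor at the 10th percentile was not run, since that percentile was below 0. Probe sets near the floor carry little signal over background, and their differences are the least precise.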
